A study of Mus musculus with 42 samples.

Results

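The messenger RNAs of 9 genes that set how much glucose the liver makes, stores and burns were followed in mice given benzo(k)fluoranthene (BkF). The genes were Pck1, G6pc, Fbp1, Tat, Ppargc1a, Igfbp1, Pklr, Irs2 and Gys2. They were found by gene symbol, as 9 of the 20018 named genes on the array and 11 of its 55681 probes, with 1 probe for each gene except Ppargc1a and Gys2, which have 2. All 11 were measured in liver. For Ppargc1a and Gys2 the probe with the brighter sample channel in liver is used below, and the other probe is given beside it.

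BkF is a polycyclic aromatic hydrocarbon that binds the aryl hydrocarbon receptor (AhR). Adult male Muta™Mouse, a transgenic strain carrying a bacterial reporter gene for mutation assays, were about 11 weeks old and were gavaged daily for 28 days. Vehicle mice (D0) received olive oil, and the low (D1), medium (D2) and high (D3) dose groups received BkF in the same oil, D1 at 25, D2 at 50 and D3 at 100 mg per kg body weight and day. The mice had food ad libitum during the study and were killed 72 hours after their last gavage. Liver was measured in 4, 2, 3 and 4 mice of D0 to D3, 1 array per mouse, and lung and forestomach of mice from the same 15 animals serve as contrast. Feeding state and time of day at killing are not given in the sources used here, and the RNA of each liver came from a slice taken at random.

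Glucose made in the liver comes from glycogen and from gluconeogenesis, the path that turns lactate, glycerol and amino acids into glucose during fasting. Glucagon and glucocorticoids switch the path on through cAMP signalling, the glucocorticoid receptor and the coactivator PGC-1alpha, and insulin switches it off by keeping FoxO1 out of the nucleus. AhR and its target Tiparp, an enzyme that adds ADP-ribose to proteins, are known from other work to hold gluconeogenesis down, which is the reason for looking at these genes under an AhR ligand.

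Values are log2 ratios of the liver RNA over a common reference RNA made from mouse cell lines, so that 1 unit is a doubling. A change is a dose group's mean minus the vehicle mean on that scale, with the standard error (SE) and 95% confidence interval of a linear model (limma) fitted to all 13 livers. A probe is called when its adjusted p does not exceed 0.05 and its change reaches 1.5-fold. The liver arrays fill 2 slides of their own, each holding all 4 dose groups. Within a slide the dose groups sit almost entirely in columns of their own, so that dose and position on the slide mostly cannot be told apart. The tissue label was borne out by its markers: 9 of 9 hepatocyte genes with a probe were well above background on all 13 liver arrays. The liver of D3 mouse 17 stood apart, with a mean log2 ratio of 3.54 over 7 skeletal muscle markers against -1.37 to -1.02 in the other D3 livers, and the D3 changes of G6pc, Fbp1, Tat, Gys2 and Pklr are also given without it.

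Most of the 9 genes were far higher in liver than in the other tissues. Of the 7 genes measured in both liver and lung, 6 were called higher in vehicle liver, where 40.8% of all probes tested were called and 17.4% were called higher in liver. Of the 5 measured in both liver and forestomach, 4 were called higher in liver, where 37.5% of probes were called and 17.0% were higher. These shares are over probes measured in either tissue of a pair, a wider set than the genes counted. Igfbp1 and Gys2 in the comparison with lung, and these 2, Fbp1 and Pklr in that with forestomach, entered only because they are high in liver, so their values are a description. Liver arrays were hybridised on other slides and read with another software version than those of the other tissues, and tissue and slide cannot be told apart here. Irs2, the insulin receptor substrate that carries the insulin signal in hepatocytes, was the gene not called in either comparison.

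Pck1, the cytosolic PEPCK that opens gluconeogenesis, had a mean log2 ratio of 8.99 ± 0.76 (SD, n = 4) in vehicle liver and was not well above background in any of the 4 vehicle lungs, so that its difference of 8.82 from lung rests on lung values at background. G6pc, the enzyme that releases free glucose at the end of the path, read 6.87 ± 0.19 in liver, 0.11 ± 0.21 in lung and 0.01 ± 0.16 in forestomach. Fbp1, fructose-1,6-bisphosphatase, read 8.28 ± 0.13, -0.31 ± 0.13 and -0.12 ± 0.12. For Pck1, G6pc and Fbp1 each, 1 of 4 vehicle forestomachs was well above background, so their forestomach values are mostly at background. G6pc and Fbp1 were above it in 3 of 4 vehicle lungs, and their vehicle livers lay above all vehicle lungs, as 25.2% of all probes did.

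Tat, which breaks down tyrosine and is a classic glucocorticoid target, read 7.45 ± 0.07 in liver, 0.28 ± 0.16 in lung and 0.42 ± 0.18 in forestomach. Igfbp1, a secreted protein that binds insulin-like growth factors and is made by liver when insulin is low, was not above background outside the liver in vehicle mice and was at least 74.6-fold higher in liver than in lung and at least 66.2-fold higher than in forestomach. Gys2, the liver form of glycogen synthase, was likewise at least 154-fold higher than in lung and at least 137-fold higher than in forestomach. The second Gys2 probe gave the same direction, at least 12.9-fold and 11.5-fold.

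Pklr, liver pyruvate kinase and the last step of glycolysis, had a log2 ratio of 3.11 ± 0.18 in liver, and was at least 6.33-fold higher there than in forestomach. Ppargc1a, which encodes PGC-1alpha, was higher in liver by less: 1.67 ± 0.38 in liver, -0.26 ± 0.36 in lung and 0.43 ± 0.45 in forestomach, a difference from lung of 1.93 (SE 0.26, limma adjusted p = 1e-07). Its second probe was well above background in 1 of 4 vehicle lungs and gives no fold. Irs2 read -0.47 ± 0.32 in liver, -0.03 ± 0.15 in lung and 0.08 ± 0.48 in forestomach, differences of -0.44 (adjusted p = 0.159) and -0.55 (adjusted p = 0.0852) that did not pass. On the sample channel alone, with the reference left out, the sign of the Irs2 difference turned, to 0.39 and 0.37, and on the scanner software's ratio the difference from forestomach passed, at -0.83.

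**Figure D1:**
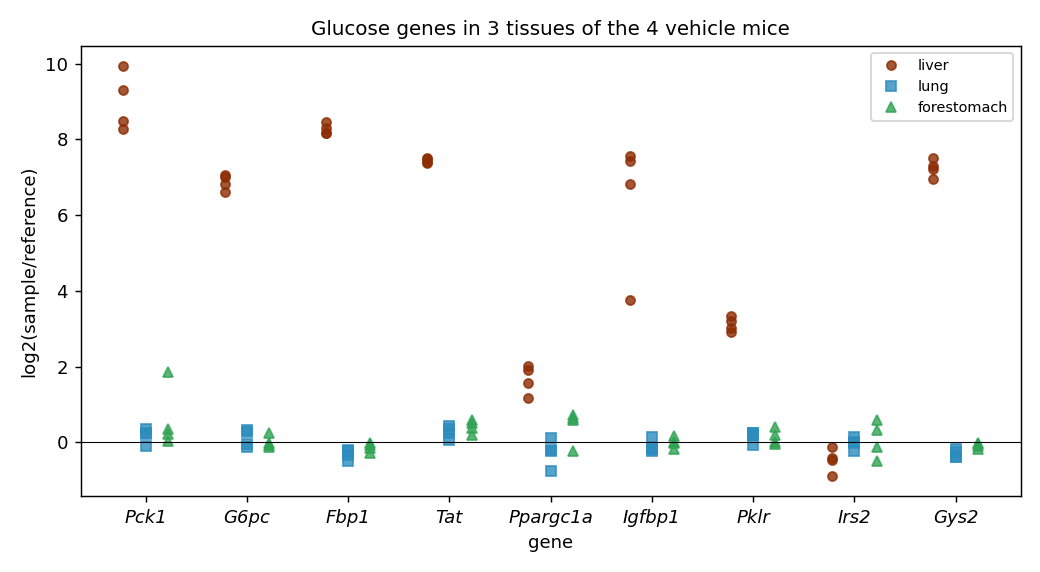
Log2 ratio of sample over reference (vertical axis) of each of the 9 genes (horizontal axis) in liver, lung and forestomach of the 4 vehicle mice, 1 point per mouse and tissue. Liver points lie above those of both other tissues for all genes but Irs2, as 25.2% of all probes did against lung and 22.5% against forestomach. Nothing is read from that count, since 2 of the genes in the lung comparison and 4 in that with forestomach were kept through liver alone. Irs2 aside, the liver means run from 1.67 for Ppargc1a to 8.99 for Pck1.

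Whether BkF lowered these messages in liver was asked at each dose and as a trend over dose. None of the 9 genes passed the threshold at D1, D2 or D3 or in the trend. The background was as thin: of 30468 probes tested in liver, 0% were called at D1, 0.0427% at D2, 0.0525% at D3 and 0% in the trend. At D3, 8 of the 9 changes lay below 0, with a median of -0.30 against a median of -0.005 over all probes, of which 48.7% lay above 0. At an unadjusted p under 0.05 there were 3 of 9 genes at D3 (G6pc, Fbp1 and Tat) against 7.79% of all probes, and 4 of 9 in the trend (these 3 and Gys2) against 8.62%. The corresponding numbers were 1 of 9 at D2 (G6pc) against 10.7% and 0 of 9 at D1 against 1.53%.

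G6pc had the lowest adjusted p of the 9 genes at D2. In the vehicle livers of mice 1, 2, 3 and 4 its log2 ratio was 6.83, 6.62, 6.99 and 7.05, and in the D1 livers of mice 8 and 9 it was 6.93 and 7.03. In the D2 livers of mice 11, 12 and 13 it was 6.17, 6.37 and 6.26, and in the D3 livers of mice 16, 17, 19 and 20 it was 6.27, 6.47, 6.80 and 6.56. All 3 D2 livers lay below all vehicle livers, which held for 4.79% of probes in that comparison, while at D3 mouse 19 reached into the vehicle range. The D2 change was -0.61 (SE 0.14, 95% interval -0.90 to -0.31, adjusted p = 0.181, from limma), equal to 0.656 of the vehicle level. It was -0.93 on the sample channel alone and -0.40 on the scanner software's ratio. At D3 it was -0.35 (SE 0.13, interval -0.62 to -0.08, adjusted p = 0.525). Within the slides, D3 minus vehicle was -0.35 on 1 slide and -0.34 on the other, each from 2 livers a group.

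Fbp1 and Tat moved in a narrower band. Fbp1 read 8.18, 8.45, 8.18 and 8.29 in the vehicle livers, 8.40 and 7.98 at D1, 8.03, 8.11 and 8.21 at D2, and 7.89, 8.05, 8.01 and 8.05 at D3. Tat read 7.41, 7.52, 7.37 and 7.49 in the vehicle livers, 7.22 and 7.41 at D1, 7.22, 7.42 and 7.48 at D2, and 7.17, 6.97, 7.27 and 7.21 at D3. For both genes all 4 D3 livers lay below all 4 vehicle livers, an arrangement in the lower direction that 3.04% of all probes showed, while the D1 and D2 livers were spread over both ranges.

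The D3 change of Fbp1 was -0.28 (SE 0.11, interval -0.51 to -0.04, adjusted p = 0.578) and that of Tat -0.30 (SE 0.10, interval -0.51 to -0.08, adjusted p = 0.470), equal to 0.826 and 0.815 of the vehicle level. Both intervals end short of a 1.5-fold decrease. Without D3 mouse 17 the changes were -0.29 for Fbp1, -0.23 for Tat and -0.33 for G6pc. Within the slides they were -0.35 and -0.20 for Fbp1 and -0.40 and -0.20 for Tat. On the sample channel alone they shrank to -0.12 for Fbp1 and -0.17 for Tat.

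Pck1 varied too much between mice for a change of this size to be seen. Its log2 ratio was 8.49, 9.29, 8.26 and 9.92 in the vehicle livers, 9.25 and 8.50 at D1, 9.38, 9.59 and 8.15 at D2, and 8.70, 8.72, 7.88 and 8.69 at D3. The vehicle livers alone spanned the whole range of D3 but for mouse 19, the lowest of all. The D3 change was -0.50 (SE 0.38, interval -1.33 to 0.33, adjusted p = 0.799), and without vehicle mouse 4, the highest liver, it was -0.18. The D2 change was 0.05 (interval -0.85 to 0.95).

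Gys2 and Irs2 also had D3 changes below 0. Gys2 read 7.30, 7.21, 6.96 and 7.495 in the vehicle livers and 6.71, 6.72, 7.23 and 7.11 at D3, with 7.35 and 7.00 at D1 and 7.25, 6.97 and 6.87 at D2. Its D3 change was -0.30 (SE 0.16, interval -0.64 to 0.04, adjusted p = 0.673), the second probe gave -0.19 (interval -0.80 to 0.42), and without D3 mouse 17 the change was -0.23. On the scanner software's ratio it was -0.51, and within the slides it was -0.54 and -0.06. Irs2 read -0.11, -0.88, -0.40 and -0.47 in the vehicle livers, -0.75 and -0.32 at D1, -1.10, 0.18 and -1.48 at D2, and -1.80, -0.84, -0.62 and -0.99 at D3. The groups overlapped for both genes. The D3 change of Irs2, -0.60 (SE 0.33, interval -1.31 to 0.12, adjusted p = 0.693), was reached or exceeded in size by 1.67% of all probes, and without D3 mouse 16 it was -0.35.

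Ppargc1a and Pklr had D3 changes close to 0, and Igfbp1 had the widest interval. At D3 the change of Ppargc1a was -0.07 (interval -0.53 to 0.39) and 0.07 on its second probe, and that of Pklr was 0.04 (interval -0.61 to 0.68). Without D3 mouse 17 the Pklr change was 0.23, and its trend turned from -0.03 to 0.17 per 100 mg/kg-bw/day. Ppargc1a ran from 1.18 to 2.06 and Pklr from 2.56 to 4.04 over the 13 livers. Igfbp1 read 7.55, 3.76, 6.82 and 7.42 in the vehicle livers, 6.26 and 6.87 at D1, 3.91, 9.48 and 4.63 at D2, and 4.92, 6.07, 6.70 and 5.96 at D3, and its D3 change of -0.48 had an interval from -2.78 to 1.83. That change was -1.35 without vehicle mouse 2 and -0.049 on the scanner software's ratio. Without D2 mouse 12, whose liver held the highest values of Igfbp1, Irs2 and Pklr, the D2 change of Igfbp1 went from -0.38 to -2.11 (adjusted p = 0.512) and that of Irs2 from -0.33 to -0.82. The reference RNA held little of some of these messages: it was well above background for Pklr on 0 of 13 liver arrays, for Igfbp1 on 3 and for Gys2 on 10, so that their ratios also carry the noise of a dim reference spot.

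**Figure D2:**
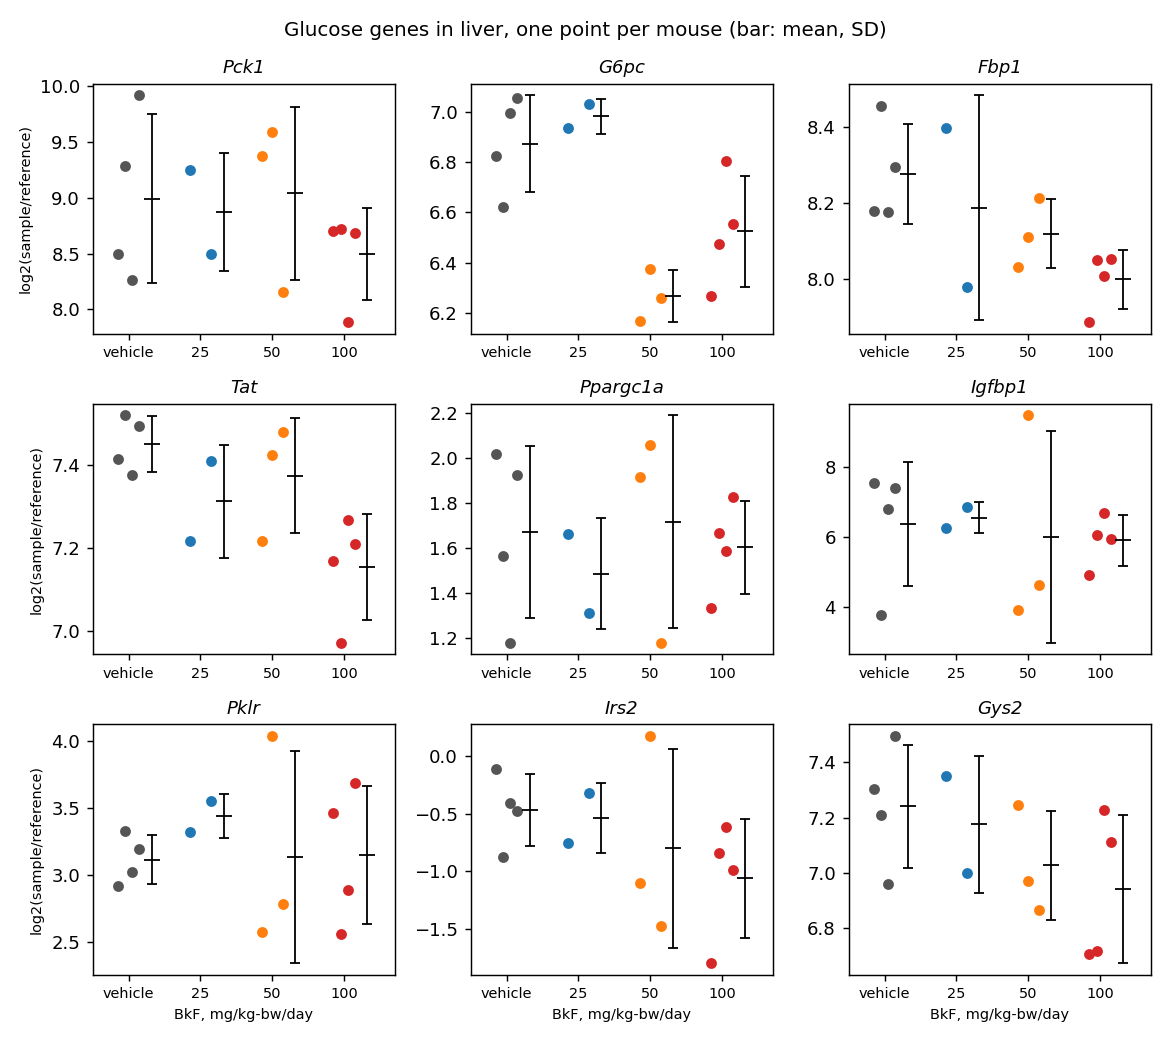
Log2 ratio of sample over reference (vertical axes, scaled for each gene) in the 13 livers by dose of BkF in mg/kg-bw/day (horizontal axes), 1 point per mouse in the order of mouse number, with the mean and SD of each group to its right. For Fbp1 and Tat the 4 livers at 100 mg/kg-bw/day lie below the 4 vehicle livers, for G6pc the 3 livers at 50 mg/kg-bw/day do, and Igfbp1 spans 5.72 units over the mice.

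**Figure D3:**
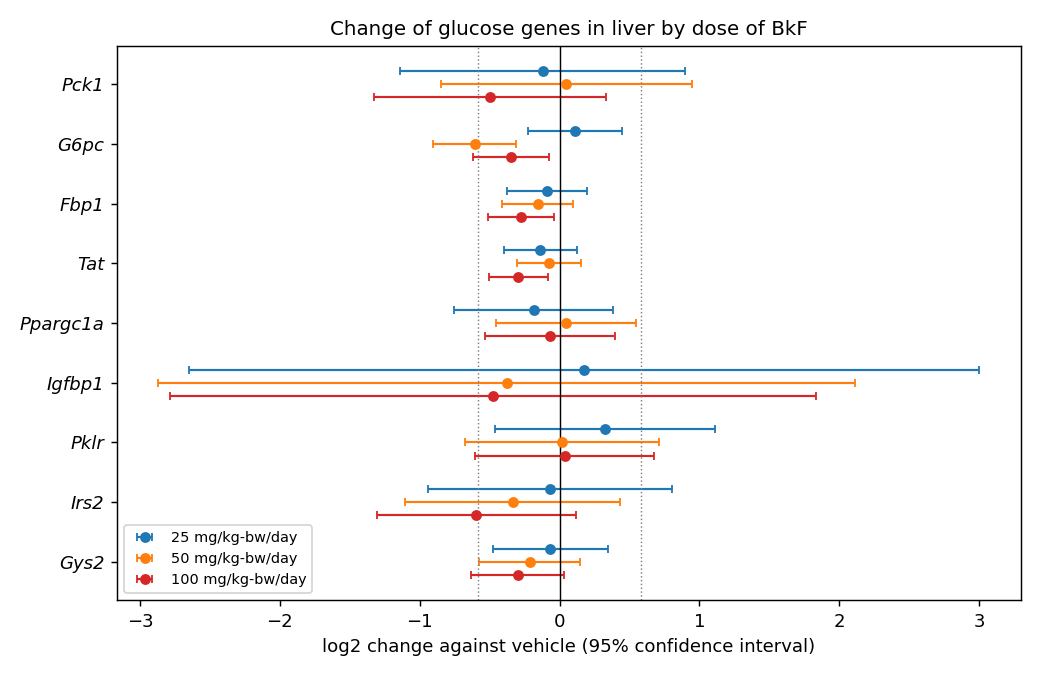
Change of each gene against vehicle liver on the log2 scale (horizontal axis, point: estimate, bar: 95% confidence interval) at the 3 doses of BkF, with dotted lines at 1.5-fold. At 100 mg/kg-bw/day 8 of 9 points lie left of 0, and the bars of Fbp1, Tat and Ppargc1a stay inside the dotted lines.

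Markers of other cells and zones of the liver were read at D3 as well. Of 9 hepatocyte markers tested (albumin, transferrin and the like), 9 had D3 changes below 0 and 0 were called, with a median of -0.38, and 6 had an unadjusted p under 0.05 against 7.79% of all probes. Their mean log2 ratio ran from 8.06 to 8.29 in the vehicle livers and from 7.47 to 8.02 at D3. Periportal markers, from the zone around the portal vein where gluconeogenesis is strongest, were below 0 for 9 of 10 genes (median -0.37), and pericentral markers for 3 of 8 (median 0.40), beside 48.7% of all probes above 0 and a median of -0.005. White fat markers were above 0 for 8 of 8 (median 1.08; mean log2 ratio 0.35 to 0.61 in vehicle livers and 0.62 to 2.86 at D3, with mice 17 and 20 at 2.86 and 2.08 and mice 16 and 19 at 0.62 and 0.77; Lep at 0 of 13 livers above background) and skeletal muscle markers for 7 of 7 (median 1.30, carried by mouse 17; vehicle -1.24 to -1.06, Mylpf above background in no liver). Of 10 macrophage and lymphocyte markers 7 were above 0 (median 0.39), and Cd74, which chaperones MHC class II, rose by 1.94 (SE 0.30, limma adjusted p = 0.0429), the only gene of any list called in liver at D3. In bulk tissue fewer hepatocytes in the slice and less of each message per hepatocyte cannot be told apart, and the part of any of these in the D3 values of the 9 genes was not tested.

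The neighbouring steps of glucose metabolism were counted from lists of genes that leave out the 9. None of these genes was called by limma in liver at any dose or in the trend, and at D3 an unadjusted p under 0.05 was met by 1 gene each of gluconeogenesis (Slc37a4, of 11 tested) and glycogen metabolism (Gyg, of 15), against 7.79% of all probes. Among 11 further genes of gluconeogenesis tested, 7 had D3 changes below 0 (median -0.06), from Gk, glycerol kinase, at -0.27 (SE 0.15) to Slc37a4, the transporter that feeds glucose 6-phosphate to G6pc, at 0.42 (SE 0.14). Among 17 genes of glycolysis and sugar uptake 8 were below 0 (median 0.01), and the highest change was that of Pfkfb1 at 0.34 (SE 0.17). Among 15 genes of glycogen metabolism 6 were below 0 (median 0.08), from Gaa, the lysosomal glucosidase, at -0.50 (SE 0.36) to Gyg, glycogenin, at 0.52 (SE 0.12, adjusted p = 0.192).

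Amino acid breakdown, which supplies carbon for gluconeogenesis, had 13 of 18 D3 changes below 0 (median -0.20), and 8 of 18 had an unadjusted p under 0.05 against 7.79% of all probes. They ran from Sdsl, a serine dehydratase, at -0.56 (SE 0.11, adjusted p = 0.146) to Oat, the pericentral ornithine aminotransferase, at 0.87 (SE 0.33). Among 25 genes of insulin, glucagon and glucocorticoid control 17 lay below 0 (median -0.04), and 4 of the 25 had an unadjusted p under 0.05 against the same 7.79%. The lowest was Igfbp2, a binding protein of insulin-like growth factors, at -1.16 (SE 0.35, adjusted p = 0.409), and the highest was Cebpb, a transcription factor of the acute phase and of gluconeogenic genes, at 0.31 (SE 0.20). The median over all probes was -0.005.

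Cyp1a1 and Tiparp, both AhR targets, were read beside the 9 genes. Cyp1a1 did not clear background in the 4 vehicle livers or in D1 mouse 9, whereas its log2 ratio was 4.61 in D1 mouse 8, 3.73, 7.14 and 6.26 in the D2 livers, and 5.90, 7.05, 2.62 and 5.55 in the D3 livers. This put D3 at least 29.8-fold and D2 at least 41.4-fold above vehicle, with adjusted p of 0.130 and 0.115 that did not pass. Tiparp read -2.71, -2.46, -2.72 and -2.55 in the vehicle livers, -2.08 and -2.33 at D1, -2.01, -0.96 and -2.0005 at D2, and -2.02, -1.504, -2.30 and -2.22 at D3. The change was 0.95 at D2 (SE 0.24, adjusted p = 0.217) and 0.60 at D3 (SE 0.22, adjusted p = 0.544). The D2 value was raised by mouse 12, at -0.96 against -2.01 and -2.0005 in the other D2 livers. Of the 10 genes of the AhR list 7 had D3 changes above 0 (median 0.36), beside 48.7% of all probes, the lowest being Aldh3a1 at -0.28.

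The 9 genes differed widely in how far mice of the same dose were apart. The SD within dose groups was 1.82 for Igfbp1 (larger than that of 99.96% of 30412 probes), 0.64 for Pck1 (98.3%), 0.55 for Irs2 (97.4%) and 0.49 for Pklr (96.4%). It was 0.11 for Tat (larger than 11.3% of probes), 0.14 for Fbp1 (22.9%), 0.18 for G6pc (44.1%) and 0.24 for Gys2 (70.5%), against a median of 0.19 over all probes. From the lowest to the highest liver, Igfbp1 spanned 52.7-fold and Tat 1.46-fold. These SDs are pooled over dose groups, and the order of the genes differed within single groups.

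Whether the genes went up and down together from mouse to mouse was tested over the 13 livers for the 36 pairs among them and for each with Tiparp, 45 pairs in all. Cyp1a1 was left out because its values form 2 clusters. Igfbp1 and Irs2, both known to be held down by insulin through FoxO1, formed the only pair past an adjusted p of 0.05: Pearson r = 0.82 (permutation p = 0.00077, two-sided, adjusted p = 0.0346) and Spearman rho = 0.91 (permutation p = 9e-05, adjusted p = 0.00405). Without mice 2 and 12, the 2 farthest from the median of Igfbp1, r was 0.85. With dose group means removed it was 0.86 (adjusted p = 0.0108) and rho was 0.82 (adjusted p = 0.0513), which did not pass. The values of each dose group then share a fixed mean, which a free permutation ignores, so both p can be too small. Within the slides r was 0.80 and 0.95, where 7 and 6 livers left no pair past the adjusted threshold. On the scanner software's own ratio it was 0.68 (adjusted p = 0.0792). D2 mouse 12 was highest and D2 mouse 11, D2 mouse 13 and vehicle mouse 2 were lowest in Igfbp1.

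G6pc and Tiparp ran in opposite directions, with r = -0.61 (permutation p = 0.0214, adjusted p = 0.421) and rho = -0.77 (permutation p = 0.0029, adjusted p = 0.0657), which did not pass. Without mice 12 and 17, the 2 farthest in Tiparp, r was -0.70. With dose group means removed it was -0.08, and within the slides it was -0.47 and -0.845. The other pairs with an unadjusted permutation p under 0.05 were Pck1 with Ppargc1a (r = 0.61, adjusted p = 0.421) and G6pc with Irs2 (r = 0.57, adjusted p = 0.442). Of all 45 pairs 35 had an r above 0.

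**Figure D4:**
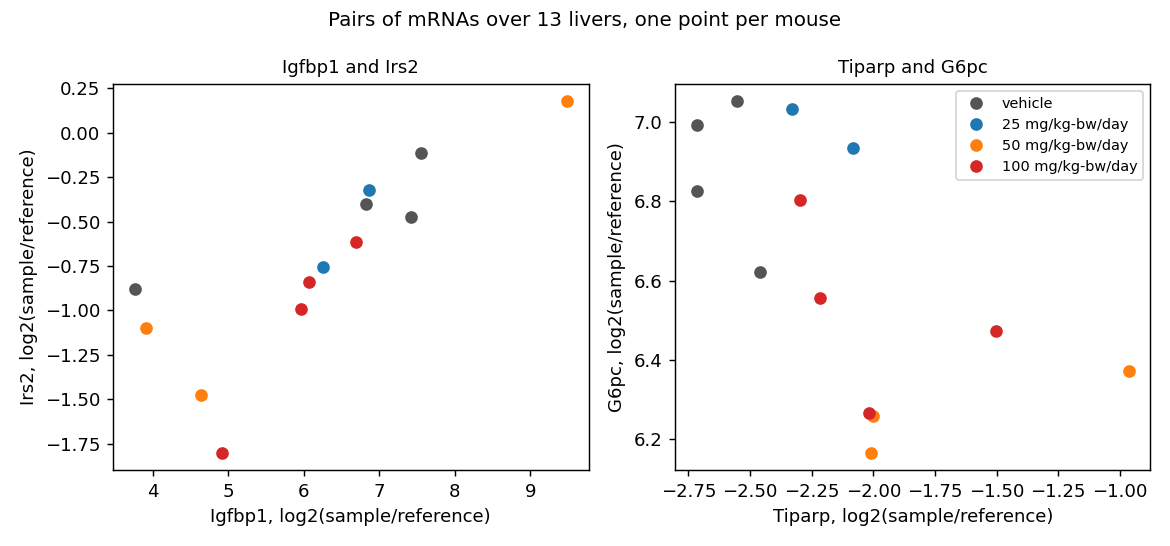
Log2 ratio of Irs2 against that of Igfbp1 (left) and of G6pc against Tiparp (right) over the 13 livers, 1 point per mouse, coloured by dose of BkF. Irs2 climbs with Igfbp1 (r = 0.82) across doses, whereas G6pc against Tiparp (r = -0.61) did not pass (adjusted p = 0.421) and gave -0.08 with dose group means removed.

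Stretches of promoter were read for the genes whose messages went together and for Pck1, the best known hormone-regulated gene of the path. They are the 250 bases before the annotated start in RefSeq (GRCm38.p6), 5′ to 3′ on the strand of the gene. RefSeq windows were found for 8 of the 9 genes, 9 windows in all since Pklr has 2. Both strands were searched for GCGTG (core of the AhR response element), TGACGTCA and its shorter form TGACG (cAMP response element), and TGTTTAC and TATTTAC (FoxO sites), where TGACG also lies inside TGACGTCA. Capitals mark the matches.

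Igfbp1, chr11:7197537-7197786, plus strand: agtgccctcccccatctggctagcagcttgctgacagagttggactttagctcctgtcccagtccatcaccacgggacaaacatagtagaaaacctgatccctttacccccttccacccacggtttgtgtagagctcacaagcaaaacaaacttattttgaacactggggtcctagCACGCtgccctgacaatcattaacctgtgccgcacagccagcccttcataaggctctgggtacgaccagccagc
Irs2, chr8:11008930-11009179, minus strand: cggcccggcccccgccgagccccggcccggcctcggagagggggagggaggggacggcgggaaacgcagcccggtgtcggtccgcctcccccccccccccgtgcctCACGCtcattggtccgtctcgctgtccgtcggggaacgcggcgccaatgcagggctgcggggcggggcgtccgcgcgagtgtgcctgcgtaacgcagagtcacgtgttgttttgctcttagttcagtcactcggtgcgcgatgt
Pck1, chr2:173152823-173153072, plus strand: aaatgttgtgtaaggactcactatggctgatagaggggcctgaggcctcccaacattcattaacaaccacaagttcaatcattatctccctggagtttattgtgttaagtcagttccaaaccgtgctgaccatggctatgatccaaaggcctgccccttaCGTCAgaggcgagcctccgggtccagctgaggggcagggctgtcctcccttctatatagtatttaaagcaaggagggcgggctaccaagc

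The capitals in Igfbp1 and in Irs2 are GCGTG on the opposite strand, 74 and 144 bases before the start, and those in Pck1 are TGACG on the opposite strand, 90 bases before it. The GCGTG core occurred in 2 of the 9 windows, these 2, and in 28.2% of 32851 promoter windows of the same length. TGACG occurred in 2 windows, Pck1 and Ppargc1a, and in 17.8% of all. Neither TGACGTCA nor the 2 FoxO forms searched occurred in these windows (1.55%, 3.17% and 2.73% of all). Other spellings of these sites were not searched, so a lack of FoxO sites is not shown. A match is a description of the letters and not a bound site.

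For each gene those with the most similar pattern over the 13 livers were listed, 2 for each but Gys2, among 14256 genes, as a description in which all points share array and dose. No chance level was computed for the highest r among so many genes, and no shared function is read from these lists. G6pc was closest to Chuk, a kinase of the NF-kappaB pathway (r = 0.93), and to Gcgr, the glucagon receptor (r = 0.91, and 0.70 with dose group means removed). Fbp1 was closest to Slc38a3, a glutamine transporter of hepatocytes (r = 0.86), and Pzp, a liver-made protease inhibitor (r = 0.85). Irs2 was closest to Tgif1 (r = 0.87) and Tnfrsf23 (r = 0.86), and Igfbp1 to Xrn2 (r = 0.90) and Cald1 (r = 0.88, 0.71 on its other probe).

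Pck1 was closest to Adam5 (r = 0.87, whose other probe gave -0.42) and Hsbp1l1 (r = 0.87). Tat was closest to Fggy (r = 0.89, but 0.35 on the least similar of its 4 probes) and Elob (r = 0.89, 0.48 on the least similar of 3 probes), and Gys2 was close to Phf13 (r = 0.84, 0.35 on its other probe). Ppargc1a was closest to Sos2 (r = 0.84) and Bnip3l (r = 0.84, 0.13 on the least similar of 4 probes), and Pklr to Farp1 (r = 0.87, -0.02 on its other probe) and Trim13 (r = 0.85, 0.56 on its other probe). Where probes of a gene disagree, the likeness belongs to 1 probe.

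Outside the liver none of the genes passed at D3 either. In lung 7 of the 9 were measured, and 0 of 7 were called against 0.0336% of all probes, 0 of 7 at an unadjusted p under 0.05 against 8% of probes. In forestomach 5 were measured, and 0 of 5 were called against 0%, again 0 of 5 at an unadjusted p under 0.05 against 2.22%. The D3 change of Fbp1 was 0.22 in lung (interval -0.05 to 0.50), and that of Tat was 0.07 in lung (interval -0.15 to 0.30) and -0.13 in forestomach (interval -0.48 to 0.21). Over the alternative runs the lung changes ran from 0.097 to 0.42 for Fbp1 and from 0.0028 to 0.13 for Tat. In forestomach Tat was well above background on 2 of 4 vehicle and 2 of 3 D3 arrays. The difference of G6pc was -0.16 in lung (interval -0.40 to 0.07) and ran from -0.39 to -0.019 over the alternative runs. In forestomach G6pc was well above background on 1 of 4 vehicle and 0 of 3 D3 arrays, so its values there are those of a probe at background.

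The D3 effect in liver minus that in lung was below 0 for 7 of 7 genes, beside 47.1% of all probes above 0, and Pck1 and Pklr among them were well above background in 0 and 1 of 4 vehicle lungs. Of these genes 0 of 7 passed against 0.0153% of all probes. The differences were -0.50 for Fbp1 (SE 0.24, unadjusted p = 0.0450, adjusted p = 0.958) and -0.37 for Tat (SE 0.16, unadjusted p = 0.0276, adjusted p = 0.914), the 2 of 7 with an unadjusted p under 0.05, as 5.16% of all probes had. Liver minus forestomach gave 0 of 5 against 0% of all probes, and 0 of 5 at an unadjusted p under 0.05 against 3.35%. A dose effect particular to liver was therefore not shown for any of them.

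Outside the liver Pck1 was highest in the samples with the highest white fat markers. Fat cells use PEPCK to make glycerol for triglyceride, and white fat markers were read as a mean log2 ratio, over 10 genes in lung and 8 in forestomach, Pck1 not among them. In lung Pck1 stood at 2.90 in D1 mouse 7, 2.29 in D2 mouse 12, 2.02 in D2 mouse 15 and 1.39 in D3 mouse 20, and between -0.11 and 0.68 on the other 11 arrays. White fat markers were at 3.40, 2.94, 2.98 and 2.31 in those 4 lungs and between 1.101 and 2.22 on the other 11. In forestomach Pck1 stood at 2.40 in D3 mouse 16 and 1.86 in D0 mouse 4, with white fat markers at 3.92 and 2.75, against 0.03 to 0.74 and 0.69 to 2.04 on the other 12 arrays. The next highest forestomach, D2 mouse 15 with Pck1 at 0.74, had white fat markers at only 0.98. All 4 high lungs were from treated mice, the high forestomachs from a vehicle and a treated mouse, and the part of fat in the Pck1 values was not tested.

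**Figure D5:**
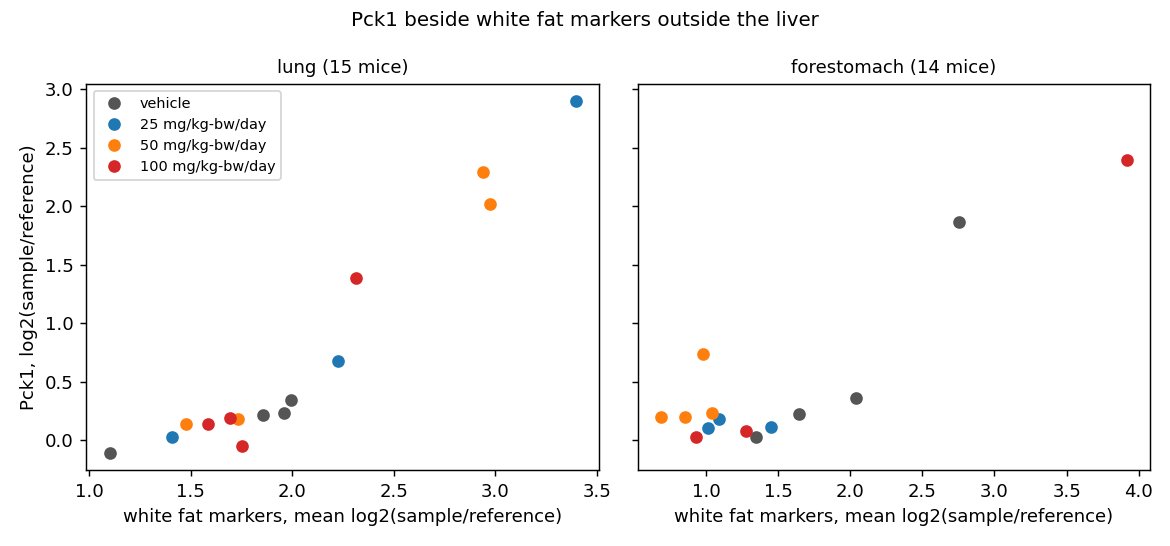
Log2 ratio of Pck1 (vertical axis) against the mean log2 ratio of white fat markers (horizontal axis) in 15 lungs (left, 10 markers) and 14 forestomachs (right, 8 markers), 1 point per mouse, coloured by dose of BkF. The 4 lungs and 2 forestomachs with Pck1 above 1 are the ones furthest to the right.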

How the data were processed

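Log2 ratios of 42 two-colour Agilent mouse arrays were analysed. Sample RNA carried Cy5 and universal mouse reference RNA carried Cy3 on every array, with no dye swap, so a dye bias stays in a single ratio. The authors deposited scanner files with median intensities of both channels and a log10 ratio, read with Feature Extraction 11.0.1.1 for liver and 10.7.3.1 for the other tissues per the file headers, and processed log2 ratios (LOWESS, no background subtraction). There the 13 liver columns did not follow the probe names (correlation with the scanner ratios from -0.003 to 0.0003), so these were used for lung and forestomach only. The study's test, MAANOVA, was replaced by limma.

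Medians without background subtraction were normalised by loess within arrays (limma 3.58.1, R 4.3.3, package data.table, version 1.17.8). Control and flagged spots were left out and spots of a probe averaged. Probes well above background on at least 2 liver, 3 lung or 3 forestomach arrays were kept. Symbols came through RefSeq accessions (26413 of 55681 probes). Models held all dose groups of a tissue, or all arrays for differences between tissues, and Benjamini-Hochberg adjustment ran over all probes kept. Correlations used 100000 permutations, or all orders within a slide, in numpy 2.4.6 under Python 3.11.15. Pathway genes named are those with the highest and lowest D3 change. Some of the genes these rules name are not reported here. Bounds ("at least") use the sample channel after Aquantile scaling, counting dim arrays at the lowest signal well above background, and are open to dye bias. Methods were tested on simulated data. The genes and lists were chosen with earlier results of these data known. Mice are the replicates, and their number limits the precision.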

Additional observations from a re-analysis of the deposited data

Results flagged for a closer look

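Of 77 groups of 4 arrays tested for 1 array far from the other 3, 7 held one, and about 1 in 20 is met by chance. In liver this was Pck1 in D3 mouse 19, with a log2 ratio of 7.8812 where the other D3 livers lay between 8.69 and 8.72. In lung, D3 mouse 20 stood out for Pck1 (1.3852, others -0.05 to 0.19) and for Ppargc1a (0.7263, others -0.24 to -0.14). Gys2 in the lung of D2 mouse 12 was at 0.4743 (others -0.45 to -0.31), and Igfbp1 in the lung of D0 mouse 4 at 0.1335 (others -0.22 to -0.17), where it was not well above background. In forestomach, Pck1 stood out in D2 mouse 15 (0.7391, others 0.20 to 0.23) and Ppargc1a in D0 mouse 1 (-0.2339, others 0.59 to 0.72), again not well above background.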

How the results depend on the processing

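No member was called at any dose, in the trend or in a difference between tissues under any alternative run, and the vehicle comparisons called 8 genes, those kept through liver alone included, except that Irs2 passed against forestomach on the scanner software's ratio (-0.83) and without forestomach D0 mouse 1 (-0.73). At D3 Pck1, G6pc, Fbp1, Tat, Igfbp1, Irs2 and Gys2 stayed below 0 in 17 of 17 alternatives. Signs turned on the scanner software's ratio for Pklr at D1 (-0.061), D2 (-0.75) and D3 (-0.22), for Pck1 (-0.53) and Ppargc1a (-0.016) at D2, and in forestomach for Pck1 (-0.35) and G6pc (0.36). In forestomach these 2 probes were well above background on 1 of 4 vehicle arrays and on 1 (Pck1) and 0 (G6pc) of 3 D3 arrays, so all their changes and sign turns there read background. 2 alternatives were chosen after seeing the data. Keeping flagged spots turned no sign, and the sample channel alone turned Tat (0.23) and Igfbp1 (0.17) at D2, G6pc in forestomach (0.019) and Irs2 between vehicle tissues (0.39 and 0.37). The slide as a block turned Pck1 at D2 (-0.029), the mean over probes turned Ppargc1a in the trend (0.039), and Irs2 in lung turned with normexp (0.0013) and with the authors' ratios (0.015), which were not run for liver. The causes were not tested.

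Leaving out 1 array at a time turned the sign of small changes, over these ranges of log2 change. In liver at D1 Pck1 ran from -0.50 to 0.25, Fbp1 -0.30 to 0.12, Igfbp1 -0.70 to 0.56, Irs2 -0.29 to 0.15, Gys2 -0.24 to 0.11. In liver at D2 Pck1 ran from -0.23 to 0.49, Tat -0.13 to 0.0016, Ppargc1a -0.12 to 0.32, Igfbp1 -2.11 to 0.67, Pklr -0.43 to 0.30, Irs2 -0.82 to 0.0050. In liver at D3 Ppargc1a ran from -0.23 to 0.047, Pklr -0.14 to 0.23. In the liver trend Ppargc1a ran from -0.15 to 0.068, Pklr -0.20 to 0.17. In lung at D3 Pck1 ran from -0.078 to 0.40, Irs2 -0.094 to 0.11. In forestomach at D3 Pck1 ran from -0.57 to 0.63, G6pc -0.065 to 0.056, Ppargc1a -0.44 to 0.0099, Irs2 -0.33 to 0.17. For the D3 effect in liver minus lung Pklr ran from -0.34 to 0.037. For the D3 effect in liver minus forestomach Pck1 ran from -1.12 to 0.070, Ppargc1a -0.078 to 0.37. The number of liver pairs past an adjusted p of 0.05 went from 1 to 0 within slide 5, to 0 within slide 6 and to 0 on the scanner software's ratio. By Spearman's rho it also went from 1 to 0 with dose group means removed. Over all probes the calls ran from 1 to 16 at D2 (0 to 157 with 1 array left out, the highest without D2 mouse 11) and from 9 to 46 at D3 (2 to 22). At D1 they ran from 0 to 2 with no array of either group left out. In the liver trend they ran from 0 to 9 with 1 array left out, the highest without D2 mouse 12. In lung at D3 they ran from 3 to 26.

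No paired analysis was possible because dose groups of a tissue share no mouse. Between tissues, the mouse as a replicate block (correlation 0.061 to 0.083) changed no member's call, with 8 genes called between vehicle tissues and 0 in the D3 differences, Tat in liver minus lung staying at -0.37 (adjusted p = 0.738), and took the calls over all probes from 4 to 14 there.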
